A study of Mus musculus with 3 samples.

Results

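The mRNA levels of 10 genes of the Atf4 stress response were followed in B16F10, a mouse melanoma line that makes pigment, after siRNA knockdown of Med23, which encodes a subunit of the Mediator complex of RNA polymerase II transcription. The genes were taken by symbol: Atf4, Atf5, Ddit3, Cebpb, Nupr1, Trib3, Chac1, Asns, Psat1 and Sesn2. All 10 were found, each under 1 gene ID, among the 12852 genes of the table, and all 10 passed the filter of 1 RPKM on the mean (reads scaled to transcript length and library size), which left 9722 genes to test. The series held 1 control library, titled siCtrl and labelled wild type, and 2 libraries titled siMed23A and siMed23B, labelled Med23 knockdown 1 and 2. All were cultured in DMEM with serum and antibiotics. The labels give neither the time after transfection nor whether the knockdown libraries came from different siRNAs or separate cultures, so their spread may be technical. The knockdown columns share 1 header cell, so first and second knockdown library here stand for column order only. The control was not replicated.

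The integrated stress response joins several forms of stress to protein synthesis. Kinases that sense missing amino acids, misfolded protein in the endoplasmic reticulum, viral double-stranded RNA or lack of heme phosphorylate the initiation factor eIF2, which lowers translation in general and raises translation of the Atf4 mRNA through its upstream open reading frames. Atf4 protein, a basic leucine zipper factor, pairs with C/EBP proteins and activates genes for amino acid synthesis and uptake, redox balance and, when stress persists, cell death. In melanoma cells Atf4 is known for lowering Mitf expression and for its part in invasive cell states. RNA sequencing reads mRNA only, so the translation step was not measured here.

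Atf4 acts at composite C/EBP-ATF elements, and the letters TGATGNAA, the core of that element, were searched on both strands in the 250 bases before the annotated start of each gene (RefSeq, build GRCm38.p6). All 10 genes had a promoter among those sequences, and in 3 the letters were found: Nupr1 and Chac1 on the opposite strand and Asns on the gene's own strand. Of all 27025 genes with such a sequence, 3.91% held them. For Trib3, counted without the letters, the bases after the annotated start were not found in its GENCODE M21 transcripts, so its promoter is uncertain. The match began 110 bases before the start in Nupr1, 193 in Chac1 and 23 in Asns. The windows below run 5′ to 3′ along the gene's strand, with the matched letters in capitals, and are shown because these 3 genes gave different readouts after knockdown. The Nupr1 window lies at chr7:126625547-126625606 (minus strand), the Chac1 window at chr2:119351023-119351082 (plus strand) and the Asns window at chr6:7693210-7693258 (minus strand).
Nupr1: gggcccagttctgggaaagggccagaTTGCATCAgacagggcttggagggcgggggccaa
Chac1: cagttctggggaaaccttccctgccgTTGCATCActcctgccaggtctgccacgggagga
Asns: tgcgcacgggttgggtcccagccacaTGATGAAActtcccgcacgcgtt
A match of letters is a description of these windows, and binding was not measured.

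Med23 was at 5.23 RPKM in the control library and at 1.65 and 1.61 RPKM after knockdown. Mitf, the melanocyte lineage factor, was 2.13-fold and 2.56-fold lower in the knockdown libraries. All 9 melanocyte markers were present and 9 of 9 fell past limma's threshold, beside 24.0% of all tested genes. At least 2-fold lower in both knockdown libraries were 7 of the 9, beside 4.76% of all tested genes. Of 21 markers of fibroblasts, leukocytes, endothelium and epithelium, 7 had a row, their summed level was 20.4 RPKM in control cells and 14.4 and 14.9 RPKM after knockdown, and apart from Cd68 (16.9 RPKM in the control, 10.0 and 10.1 after knockdown) none of these was above 2.29 RPKM in any library. Read depth was unknown, because the deposited columns share 1 distribution of values. With 1 control, limma takes its spread from the 2 knockdown libraries and from a prior over all genes, and it takes the control to vary as they do.

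Of the 10 genes, 7 (Atf4, Atf5, Ddit3, Cebpb, Nupr1, Trib3 and Chac1) rose after Med23 knockdown and 1 (Sesn2) fell, and the amino acid enzymes Asns and Psat1 did not pass the test (limma, Benjamini-Hochberg adjusted p under 0.05 over all tested genes). Calls were common in this comparison: 50.3% of all tested genes passed, 26.3% as higher and 24.0% as lower. Cebpb and Nupr1 were at least 2-fold higher in both knockdown libraries and Sesn2 at least 2-fold lower, against 4.97% and 4.76% of all tested genes. At 1.5-fold in both libraries 4 of the 10 were higher (14.6% of all tested genes) and 1 was lower (13.5%), and at 3-fold 2 were higher (1.58%) and 0 lower (1.17%). The median log2 ratio of the 10 genes was 0.46 on the log2(RPKM + 1) scale, and that of all tested genes was 0.01. The median absolute log2 ratio was 0.49 for the 10 genes and 0.34 for all tested genes.

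**Figure D1:**
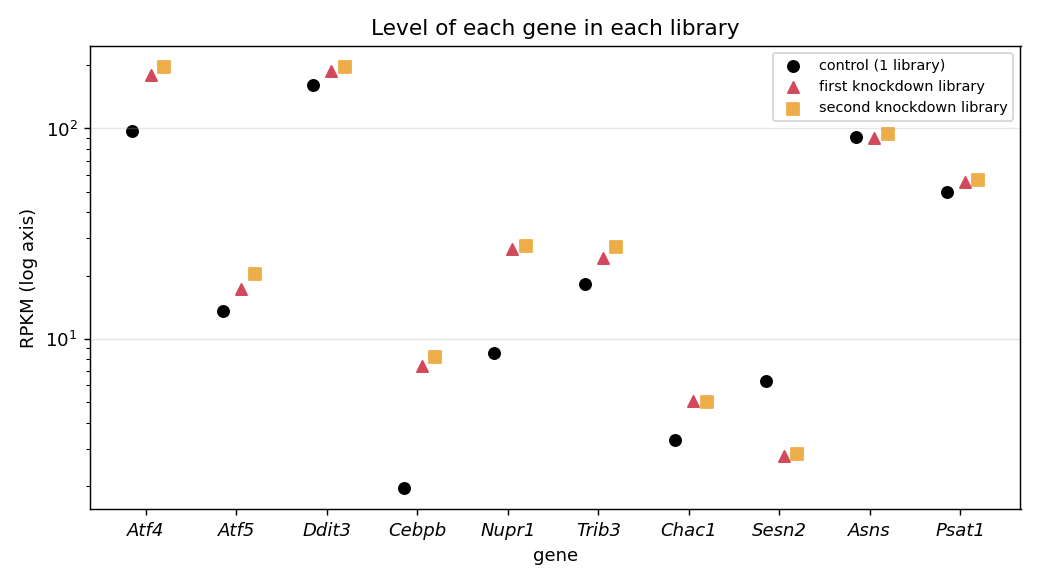
RPKM (log axis) of each of the 10 genes in the control library (circles), the first knockdown library (triangles) and the second (squares), with 1 point per library. Cebpb and Nupr1 stand furthest above their control values, Sesn2 stands below its control value, and the 3 points of Asns lie between 90.5 and 93.8 RPKM.

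Atf4 (ENSMUSG00000042406), the factor at the centre of the response, stood at 97.0 RPKM in the control library and at 180.2 and 196 RPKM after knockdown. Both knockdown values lay well above the control and near each other. The mean of 188 ± 11.1 RPKM (SD, n = 2) was 1.94-fold the control value, and the log2 ratio was 0.95 (SE 0.067, limma adjusted p = 0.000639). By the smaller rise of the 2 libraries on the log2(RPKM + 1) scale, Atf4 ranked 356 among the 9722 tested genes.

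The other leucine zipper factors translated or induced with Atf4 differed in the size of their change, and Atf5 and Ddit3 rose by less than Atf4. Atf5 (ENSMUSG00000038539), which like Atf4 is translated through upstream reading frames and is known for the mitochondrial stress response, was 13.6 RPKM in control cells and 17.2 and 20.4 RPKM after knockdown. The knockdown libraries differed from each other by nearly as much as the lower of them differed from the control. The log2 ratio was 0.44 (SE 0.12, limma adjusted p = 0.0301), and 0.24 and not past the threshold after a correction for transcript length and GC content. Ddit3 (ENSMUSG00000025408) encodes CHOP, a C/EBP family member tied to cell death under lasting stress. It was the most abundant of the 10 genes in the control, at 161 RPKM, and was 187 and 195 RPKM after knockdown. This was a 1.19-fold difference, with a log2 ratio of 0.25 (limma adjusted p = 0.0133, SE 0.052). The sign did not hold after the length and GC correction described below (-0.076), and the call was also lost without an intensity trend. After knockdown the mean levels of Atf4 (188 ± 11.1 RPKM) and Ddit3 (191 ± 5.34 RPKM, SD, n = 2) did not differ beyond their spread, whereas in the control library Ddit3 was higher.

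Cebpb and Nupr1 had the largest rises of the set. Cebpb (ENSMUSG00000056501), a C/EBP factor that pairs with Atf4, was the least abundant of the 10 in the control, at 1.95 RPKM, and was 7.39 and 8.17 RPKM after knockdown. The mean after knockdown was 7.78 ± 0.550 RPKM (SD, n = 2), with rises of 3.80-fold and 4.20-fold in the libraries. Its log2 ratio was 1.57 (SE 0.12, limma adjusted p = 0.000691). Nupr1 (ENSMUSG00000030717), a small chromatin-associated stress protein, was 8.52 RPKM in control cells and 26.7 and 27.7 RPKM after knockdown. Its mean of 27.2 ± 0.725 RPKM (SD, n = 2) was 3.20-fold the control, and the log2 ratio was 1.57 (SE 0.085, limma adjusted p = 0.000315). The genes ranked 92 (Cebpb) and 89 (Nupr1) among all tested genes by the smaller rise of the 2 libraries on the log2(RPKM + 1) scale. That scale understates changes of low genes. With 0.1 added to the RPKM in place of 1, the log2 ratio was 1.94 for Cebpb and 1.66 for Nupr1. Nupr1 holds the element's core letters in the window printed above, and Cebpb holds none in its 250 bases.

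A feedback gene and a redox gene of the response had log2 ratios between those of Ddit3 and Atf4. Trib3 (ENSMUSG00000032715), a pseudokinase that binds Atf4 and dampens its activity, was 18.2 RPKM in control cells and 24.3 and 27.2 RPKM after knockdown, with a log2 ratio of 0.47 (limma adjusted p = 0.0126, SE 0.098). Chac1 (ENSMUSG00000027313), an enzyme that degrades glutathione and is a target of the Atf4 and CHOP branch, was 3.29 RPKM in control cells and 5.07 and 5.03 RPKM after knockdown. Its values in the knockdown libraries nearly coincided, and the log2 ratio was 0.50 (SE 0.11, limma adjusted p = 0.0142). Chac1 was at 0.29 and did not pass after the length and GC correction.

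Sesn2 (ENSMUSG00000028893), a leucine sensor that restrains mTORC1 and is induced by Atf4 and by other stress factors such as p53, went the other way. It was 6.32 RPKM in control cells and 2.78 and 2.84 RPKM after knockdown. The control value was 2.25-fold the knockdown mean of 2.81 ± 0.0476 RPKM (SD, n = 2), and the log2 ratio was -0.94 (SE 0.11, limma adjusted p = 0.00232). By the smaller fall of the 2 libraries on the log2(RPKM + 1) scale it ranked 339 among all tested genes.

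The enzymes of amino acid synthesis did not pass the test. Asns (ENSMUSG00000029752), asparagine synthetase, was 90.7 RPKM in control cells and 90.5 and 93.8 RPKM after knockdown, so the control lay between the knockdown values. Its log2 ratio was 0.022 (SE 0.060, limma adjusted p = 0.779). Of the 3 promoters with the element's core letters, that of Asns holds them nearest to the start. Psat1 (ENSMUSG00000024640), the aminotransferase of serine synthesis, was 50.1 RPKM in control cells and 55.9 and 56.8 RPKM after knockdown. Both knockdown values were above the control, with a log2 ratio of 0.17 (limma adjusted p = 0.0828, SE 0.065), which did not pass. Both enzymes were abundant, above 95.5% (Asns) and 91.5% (Psat1) of tested genes in the control.

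**Figure D2:**
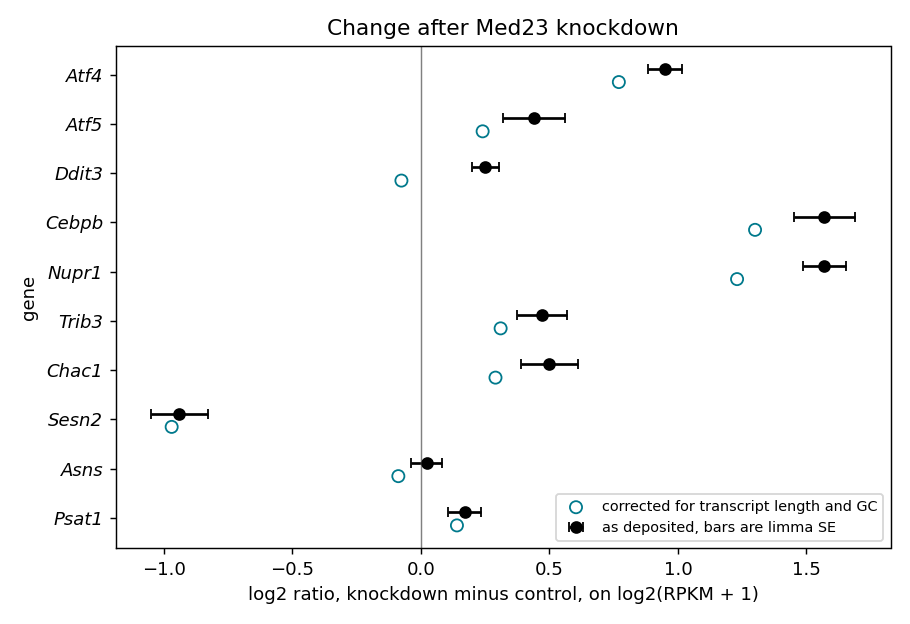
Log2 ratio (knockdown minus control, log2(RPKM + 1) scale) of each gene from the limma fit, with its standard error (filled points), and after correction for transcript length and GC content (open points). Cebpb and Nupr1 are furthest to the right in both, Sesn2 is to the left of 0 in both, and Ddit3 and Asns are on the other side of 0 after the correction.

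How many of the rises passed depended on the spread given to the lone control. With an SD 2 times as large as a knockdown library's, Atf4, Cebpb and Nupr1 stayed past the threshold as higher (limma adjusted p = 0.0108, 0.0116 and 0.00562) and Sesn2 as lower (adjusted p = 0.0332), while 8.33% of all tested genes were called higher and 7.03% lower. With an SD 3 times as large, Nupr1 alone of the 10 passed (adjusted p = 0.0373, background 1.21% higher and 0.792% lower), and the adjusted p was 0.0670 for Atf4, 0.0711 for Cebpb and 0.162 for Sesn2. Ddit3 also did not pass without an intensity trend in limma (adjusted p = 0.0816). Over all settings tried the limma adjusted p ran from 1.80e-05 to 0.0670 for Atf4, from 1.46e-05 to 0.0711 for Cebpb and from 3.73e-06 to 0.0373 for Nupr1. It ran from 9.25e-05 to 0.162 for Sesn2 and from 0.0133 to 0.388 for Ddit3. The low ends for Atf4, Cebpb, Nupr1 and Sesn2 come from the length and GC correction described below, which was chosen after seeing the data. That correction was fitted to each knockdown library, and limma did not count the degrees of freedom it used. In the main fit the limma adjusted p of these 4 genes was 0.000639, 0.000691, 0.000315 and 0.00232.

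Transcript length and base composition moved with the log2 ratios. Across 9614 tested genes with a transcript in GENCODE M21, the log2 ratio had a Spearman correlation of -0.38 with transcript length and 0.20 with GC content. Both were taken from the gene's longest protein-coding transcript, or from its longest transcript where none was protein-coding. These genes share the same 3 libraries. The second minus the first knockdown library followed GC content too (0.33). Of the 10 genes, 9 were shorter than the median of 3085 bases, the exception being Sesn2 at 3475 bases, and 8 had a GC content above the median of 50.2%. Nupr1 (829 bases) and Ddit3 (890 bases) were the shortest, and Cebpb was the richest in GC, at 67.2%. After a loess correction for both properties, chosen after seeing the data, 4 of the 10 were called higher (Atf4, Cebpb, Nupr1 and Trib3) and Sesn2 lower, against 27.3% higher and 24.7% lower over all genes. The corrected log2 ratios were 0.77 for Atf4, 1.30 for Cebpb, 1.23 for Nupr1, 0.31 for Trib3 and -0.97 for Sesn2. Ddit3 changed sign, to -0.076 (limma adjusted p = 0.388), and Atf5 and Chac1 no longer passed, at 0.24 (adjusted p = 0.0902; range over settings 0.0300 to 0.470) and 0.29 (adjusted p = 0.0582; range 0.0135 to 0.364).

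**Figure D3:**
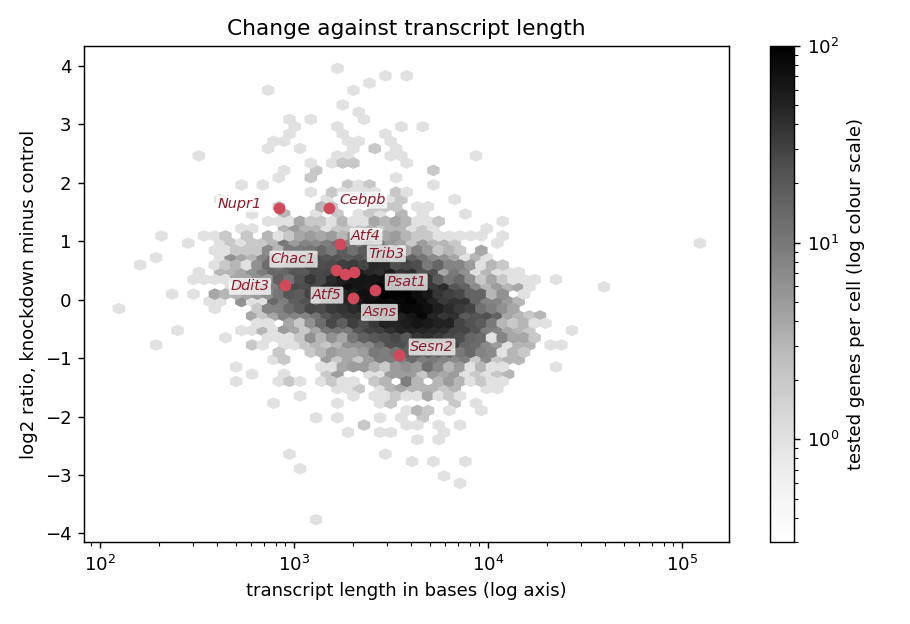
Log2 ratio (knockdown minus control, log2(RPKM + 1) scale) against transcript length (log axis) for the 9614 tested genes with a length, shaded by the number of genes per cell, with the 10 genes as labelled points. Shorter transcripts have higher log2 ratios on the whole (Spearman -0.38), and Nupr1 and Cebpb stand above most genes of like length.

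Exons of 3 of the 10 genes overlap another gene on the opposite strand in GENCODE M21, and whether reads were counted by strand is not given in the sources used here, so their levels are uncertain by what the partner adds. Atf5 shares 82 exon bases with Nup62, a nuclear pore gene that rose from 21.1 to 34.9 and 37.1 RPKM, and 82 with Il4i1, which was below 1 RPKM in each library. Ddit3 shares 68 bases with Mars, which was 9.90 RPKM in control cells and 9.73 and 10.4 RPKM after knockdown. Cebpb shares 312 bases with Tmem189, whose values were not analysed here.

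Upstream of Atf4, 1 of the 4 kinases of eIF2 was called lower, and the calls of a further pair depended on the length and GC correction. Eif2ak3 (PERK), the kinase of the endoplasmic reticulum, fell from 9.16 to 4.25 and 4.28 RPKM (log2 ratio -0.95, limma adjusted p = 0.00203). Gcn1l1, which activates the amino acid sensing kinase, fell from 8.45 to 4.52 and 5.12 RPKM (log2 ratio -0.70). That kinase itself, Eif2ak4 (GCN2), was 3.39 RPKM in control cells and 3.93 and 3.98 RPKM after knockdown, and Eif2ak2 (PKR), the sensor of double-stranded RNA, was 3.95 RPKM against 5.72 and 4.28 RPKM; neither passed (limma adjusted p = 0.232 for each), and both were named after their values were seen. Both were called higher after the length and GC correction, with log2 ratios of 0.36 for Eif2ak4 and 0.45 for Eif2ak2. Ppp1r15a (GADD34), an Atf4 pathway target that directs a phosphatase to eIF2 and so ends the response, rose from 5.93 to 49.1 and 45.9 RPKM. Its log2 ratio was 2.81 (SE 0.086, limma adjusted p = 0.000112), above that of any of the 10 genes, and it passed also with the control SD taken as 3 times. Of this list's 17 genes 5 rose, 3 fell and 9 did not pass, beside 26.3% higher and 24.0% lower over all tested genes. The list's median log2 ratio was 0.17. After the correction 7 were called higher and 3 lower, beside 27.3% and 24.7% of all genes.

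Partners and relatives of Atf4 in the leucine zipper family moved both ways, 6 higher, 4 lower and 2 not past the test of 12 (2 lower without a filter on low values). The length and GC correction gave 4 higher and 4 lower in this list. Of all tested genes 26.3% were called higher and 24.0% lower, and 27.3% and 24.7% after the correction. Jun rose from 22.8 to 95.1 and 102 RPKM (log2 ratio 2.06, limma adjusted p = 0.000162). Atf3, a stress factor downstream of Atf4, rose from 6.52 to 14.7 and 15.3 RPKM (log2 ratio 1.09, limma adjusted p = 0.00109). Creb1, the cyclic AMP response factor, fell from 5.49 to 2.62 and 2.70 RPKM (log2 ratio -0.83), but was at -0.35 and no longer passed after the length and GC correction. Cebpg, the dimer partner most tied to Atf4 in amino acid stress and named after its values were seen, rose from 11.9 to 16.8 and 18.4 RPKM (log2 ratio 0.53, limma adjusted p = 0.00892).

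Of 9 serine, glycine and one-carbon enzymes tested, 1 rose, 4 fell and 4 did not pass. The shares over all tested genes were 26.3% higher and 24.0% lower. Psph, which follows Psat1 in serine synthesis, fell from 13.5 to 5.29 and 6.34 RPKM (log2 ratio -1.10, limma adjusted p = 0.00242), while Phgdh, the step before Psat1 and named after its values were seen, was 27.6 RPKM in control cells and 28.1 and 26.6 RPKM after knockdown. Shmt2, the mitochondrial enzyme that turns serine into glycine, fell from 33.5 to 20.6 and 20.5 RPKM, and Aldh1l2, a mitochondrial folate enzyme, from 201 to 115 and 135 RPKM. The member that rose, Mthfd2 (59.3 RPKM, then 82.9 and 85.3 RPKM), a mitochondrial folate enzyme known as an Atf4 target, was named after its values were seen. After the length and GC correction 2 were called higher in this list, beside 27.3% of all genes.

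Other amino acid enzymes gave 4 higher, 3 lower and 8 not past the test of 15, beside 26.3% higher and 24.0% lower over all genes. Got1, the cytosolic aspartate aminotransferase, fell from 196 to 66.9 and 71.8 RPKM (log2 ratio -1.49, limma adjusted p = 0.000239), and Aldh18a1, the first step of proline synthesis, from 28.3 to 14.8 and 16.3 RPKM. Cth, which makes cysteine, rose from 0.944 to 2.96 and 3.17 RPKM (log2 ratio 1.06, limma adjusted p = 0.00195). Cth was under 1 RPKM in the control and passed the filter through the knockdown libraries. In this list 5 were called lower after the length and GC correction, beside 24.7% of all genes.

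Of 13 amino acid transporters tested, 3 rose, 5 fell and 5 did not pass, beside 26.3% higher and 24.0% lower over all genes. Slc7a5, the large neutral amino acid carrier, rose from 25.2 to 37.1 and 38.5 RPKM (log2 ratio 0.57, limma adjusted p = 0.00341). Its heavy chain Slc3a2, named after its values were seen, rose from 52.5 to 68.7 and 68.8 RPKM (log2 ratio 0.38). Slc7a11, the cystine carrier that shares that heavy chain and is a textbook Atf4 target, fell from 1.92 to 0.558 and 0.719 RPKM (log2 ratio -0.84, limma adjusted p = 0.00475), and Slc36a4, a lysosomal amino acid carrier, fell from 1.99 to 0.704 and 0.770 RPKM. Slc7a11 and Slc36a4 were under 1 RPKM in both knockdown libraries and passed the filter through the control library. After the length and GC correction 1 transporter (Slc36a4) was called lower and 4 higher, beside 24.7% and 27.3% of all genes. Slc7a11 was then at -0.35 and no longer passed. Without a filter on low values 3 were called lower.

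Among 13 genes of tRNA charging and export that are known to follow Atf4, limma called 0 higher, 5 lower and 8 not past the threshold. Over all tested genes 26.3% were called higher and 24.0% lower. At an unadjusted p under 0.05 (limma), 0 of the 13 were higher and 7 lower, beside 2955 and 2700 of all 9722 tested genes. Wars, the tryptophan enzyme, fell from 38.1 to 10.9 and 11.9 RPKM (log2 ratio -1.66, limma adjusted p = 0.000356), Lars, the leucine enzyme, from 23.2 to 15.6 and 15.4 RPKM, and Xpot, the tRNA exporter, from 5.26 to 3.34 and 3.46 RPKM (after the length and GC correction Xpot was at -0.26 and no longer passed). The median log2 ratio over these genes was -0.19.

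The remaining targets of the response were split, with 5 higher, 6 lower and 8 not past the test of 19. The shares over all tested genes were 26.3% higher and 24.0% lower. Gadd45b and Gadd45a, stress-induced regulators of growth arrest, rose from 42.8 to 195 and 190.3 RPKM and from 32.6 to 61.6 and 73.5 RPKM (log2 ratios 2.15 and 1.02). Ero1l, the oxidase that drives disulfide formation and is a target of CHOP and of hypoxia factors, fell from 1003 to 360.3 and 395 RPKM (log2 ratio -1.41, limma adjusted p = 0.000219). Ddit4, an inhibitor of mTORC1 shared by Atf4 and hypoxia and named after its values were seen, fell from 301 to 175 and 187 RPKM (log2 ratio -0.73).

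The relatives of Sesn2 were also lower. Sesn1 fell from 7.47 to 3.74 and 3.78 RPKM (log2 ratio -0.83, limma adjusted p = 0.00305) and Sesn3 from 28.1 to 19.0 and 19.5 RPKM (log2 ratio -0.52, limma adjusted p = 0.00532). After the length and GC correction Sesn3 was at -0.099 and did not pass. Rragc, a Rag GTPase that brings mTORC1 to the lysosome, fell from 24.0 to 15.7 and 16.7 RPKM. Of the 14 tested genes of amino acid sensing by mTORC1, limma called 0 higher, 5 lower and 9 not past the threshold. Over all tested genes 26.3% were called higher and 24.0% lower. At an unadjusted p under 0.05 (limma), 0 of the 14 were higher and 5 lower, beside 2955 and 2700 of all 9722 tested genes. After the length and GC correction 1 was called higher and 3 lower, beside 27.3% and 24.7% of all genes.

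Neighbouring stress pathways moved both ways. Of 17 genes of the Atf6 and Xbp1 branches of the unfolded protein response, 4 rose, 7 fell and 6 did not pass. Hspa5 (BiP), the main chaperone of the endoplasmic reticulum, rose from 584 to 894 and 911 RPKM (log2 ratio 0.63, limma adjusted p = 0.000313), Manf, a secreted stress factor, rose from 47.2 to 83.1 and 84.0 RPKM, and Xbp1 itself fell from 21.5 to 11.1 and 11.8 RPKM (log2 ratio -0.85). Of 10 mitochondrial stress genes, 1 rose, 5 fell and 4 did not pass, and the length and GC correction gave 1 higher and 7 lower. For both lists, the shares over all tested genes were 26.3% higher and 24.0% lower, and 27.3% and 24.7% after the correction. Hspa9 and Lonp1, a chaperone and a protease of the mitochondrial matrix, fell from 520.1 to 245 and 251 RPKM and from 257 to 123 and 137 RPKM, and Oma1, a protease that relays mitochondrial stress, from 2.71 to 1.10 and 1.18 RPKM.

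**Figure D4:**
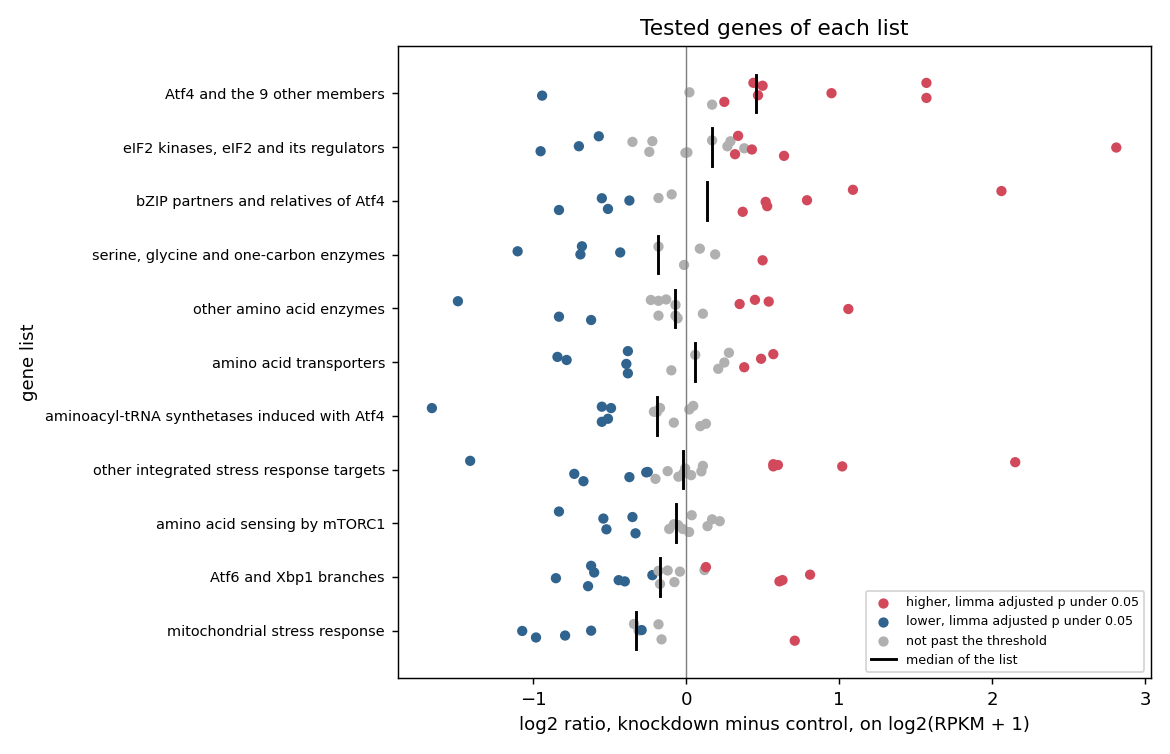
Log2 ratio (knockdown minus control, log2(RPKM + 1) scale) of each tested gene, by list, coloured by limma's call, with a bar at each list's median. The median of the 10 genes is 0.46, and the medians of the other lists run from -0.32 (mitochondrial stress response) to 0.17 (eIF2 kinases, eIF2 and its regulators).

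Over these 10 lists together, 139 genes were tested, of which 29 rose, 47 fell and 63 did not pass, beside 26.3% higher and 24.0% lower over all genes. Their median log2 ratio was -0.10. With the control SD taken as 2 times, 14 were called higher and 17 lower, beside 8.33% and 7.03% of all tested genes. With 3 times 4 were higher (Ppp1r15a, Jun, Gadd45b and Hspa5) and 4 lower (Got1, Wars, Ero1l and Hspa9), beside 1.21% and 0.792%.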

How the data were processed

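RNA of 3 libraries was sequenced after Trizol and column extraction, per the labels' protocols. The deposited values are the authors' RPKM. CASAVA 1.4, TopHat, Cufflinks and build mm9 stand in the submitters' processing notes without role or order. The 3 columns, each sorted, agreed within a relative difference of 1e-09 at 95.3% of positions, so the RPKM had been quantile normalized before deposit. Each column summed to 255492 RPKM, so depth and changes in total RNA cannot be read from them.

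Values were analysed as log2(RPKM + 1), a scale on which ratios understate changes of low genes. A gene's mean had to reach 1 RPKM, and limma 3.58.1 in R 4.3.3 (intensity trend, Benjamini-Hochberg adjustment, threshold 0.05) was run on all such genes. The fit had 1 residual degree of freedom and a prior of 4.37. The limma step was tested on simulated data in which the control had the same spread as the knockdown libraries. That test cannot show how the calls hold if the control varies more. The genes and lists were chosen with earlier results of these data known. Named are the 10 genes, Med23, Mitf, the 3 genes nearest to Atf4 in both log2 ratios and, from each list, up to 3 genes past the threshold, ranked by the smaller absolute log2 ratio of the 2 libraries. Of 157 list entries, 148 had a row and 139 were tested. Transcript length and GC came from GENCODE M21 (98.9% of tested genes matched by ID), and promoter sequences from RefSeq (GRCm38.p6). Neither is the build mm9, so no position is tied to the expression table. Tables were read with Python 3.11.15 and pandas 2.3.3.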

Additional observations from a re-analysis of the deposited data

How the results depend on the processing

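No paired analysis was possible because the control had 1 library. Against the 7 genes of the 10 called higher and 1 lower, a control SD of 2 times gave 3 higher, 3 times gave 1 higher and 0 lower (1 lower at an unadjusted p under 0.05, limma), and the length and GC correction, chosen after seeing the data, gave 4 higher. A minimum of 5 RPKM left 8 of the 10 to test, without Sesn2 and Chac1. There limma called 0 lower (0 at an unadjusted p under 0.05). That count reflects the removal of Sesn2, the only gene of the 10 called lower, and is no test of its fall. For the 10 lists, 29 higher and 47 lower became 14 and 17 with a control SD of 2 times and 4 and 4 with 3 times. The shares over all tested genes were 8.33% higher and 7.03% lower with 2 times, and 1.21% and 0.792% with 3 times. Of the 10 genes, 2 were 2-fold higher in both libraries and 4 were 1.5-fold higher. The 1 that was 2-fold lower became 0 at 3-fold and 0 as a ratio of RPKM + 1. With each knockdown library left out in turn, the number 2-fold higher ran from 2 to 3 and the number 2-fold lower was 1. The share over all tested genes was not computed for these counts from a single knockdown library. The sign changed for Ddit3 (-0.076) and Asns (-0.088) after the length and GC correction and for Asns (-0.0036) without the second library (0.048 without the first). Phgdh ran from -0.053 to 0.026 with each knockdown library left out. A pseudocount of 0.1, no filter, centred libraries and no intensity trend kept each of these counts of limma calls within 1.5 times. The causes were not tested. Depth is unknown, so no counting error could be given.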

Other observations

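The tested genes nearest to Atf4 by Euclidean distance over the log2 ratios of the 2 knockdown libraries, which share the control, were A930039A15Rik (distance 0.0121), Pcdh1 (0.0239) and Pcsk4 (0.025). Pcdh1, a protocadherin, stood at 1.69 RPKM in the control library and at 3.93 and 4.31 RPKM after knockdown. A930039A15Rik and Pcsk4 were under 1 RPKM in the control, at 0.496 and 0.832 RPKM, and passed the filter through the knockdown libraries. Their means after knockdown were 3.83-fold and 3.09-fold the control, and that of Pcdh1 2.45-fold, against 1.94-fold for Atf4. These 3 genes lie near Atf4 on the log2(RPKM + 1) scale, which understates changes of low genes. With a pseudocount of 0.1 the log2 ratio was 1.74 for A930039A15Rik, 1.24 for Pcdh1 and 0.95 for Atf4.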
